A study of Mus musculus with 2 samples.

Results

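The Hox genes of mouse were described in common myeloid progenitors by the regions of accessible chromatin at their promoters and along their 4 clusters. Members were the genes whose symbol is Hoxa, Hoxb, Hoxc or Hoxd plus a number and which GENCODE M21 annotates as protein-coding. The list held 38 genes of the 21853 protein-coding genes that were compared, 10 in HoxA, 10 in HoxB, 9 in HoxC and 9 in HoxD. The rule uses symbols and annotation and not accessibility, though earlier results of these data were known when it was chosen.

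ATAC-seq, an assay that uses a transposase to insert sequencing adapters into open chromatin, had been run on 2 libraries of primary common myeloid progenitors from adult male C57BL/6J mice aged 5 to 6 weeks, with 50000 cells per library. Common myeloid progenitors are bone marrow cells that give rise to erythroid, megakaryocytic, granulocytic and monocytic cells. Both libraries belong to a single group, biological replicates 1 and 2. They carry the same donor label, so nothing states that they came from separate animals, and their spread may be technical. With a single cell type, comparisons run among Hox genes and against the rest of the genome.

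Hox genes encode homeodomain transcription factors and lie in clusters in which the order of the genes along the chromosome follows the order of their use from head to tail in the embryo. Low paralog numbers mark the anterior end of a cluster and high numbers the posterior end. In blood formation, HoxA genes such as Hoxa9 and several HoxB genes act in stem and progenitor cells and decline as cells mature. Trithorax-group activators such as Kmt2a keep Hox genes active, Polycomb complexes keep them silent, and the factors work on DNA together with Pbx and Meis cofactors.

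Regions were formed by merging overlapping peaks of the authors' conservative list, the peaks kept by an irreproducible discovery rate (IDR) threshold over both replicates. A gene counted as open when a region came within 1 kb of a start of any of its protein-coding transcripts. The signal of a region is the authors' value for its strongest peak, on a scale the sources do not state, so it is compared only within a list. Each replicate also has its own IDR-thresholded list, and the regions numbered 67395 in the conservative list, 47535 in that of replicate 1 and 37620 in that of replicate 2. The files hold no read counts, so depth is unknown, and with 1 group no test over samples exists. All values are therefore descriptions. The cell type label was set against marker genes in the conservative list, where 60.8% of all protein-coding genes were open. There 8 of 8 progenitor markers were open, Kit and Spi1 among them. Of the mature neutrophil markers 0 of 4 were open, and likewise 0 of 4 markers of other tissues. Among lymphoid markers, 2 of 4 for B cells were open (Pax5 and Ebf1), and 1 of 4 for T cells (Bcl11b, not Cd3e, Cd3g or Cd8a). In replicate 1's own list, with 56.3% of all genes open, the marker counts were the same. In replicate 2's, with 52.0%, 7 of 8 progenitor markers (not Gfi1) and 0 of 4 T cell markers were open. The part of other cells in the Hox values was not tested.

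Few Hox genes were open. Of the 38 members, 11 (28.9%) had a promoter region, against 60.8% of all protein-coding genes. In replicate 1's own list 9 members were open (23.7%), against 56.3% of all genes, and in replicate 2's own list 6 (15.8%), against 52.0%. All 6 of replicate 2 were also open in replicate 1, 3 more were open in replicate 1 alone, and Hoxb1 and Hoxc5 were open in the joint list but in neither replicate's own. The members' share lay below that of all genes in every list used, yet the count moved with the list, from 3 members (43.7% of all genes) in the stronger 50% of regions to 20 (68.3% of all genes) in the authors' replicated peaks. The authors' second IDR-thresholded list of both replicates gave 10 members, against 60.7% of all genes.

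**Figure D1:**
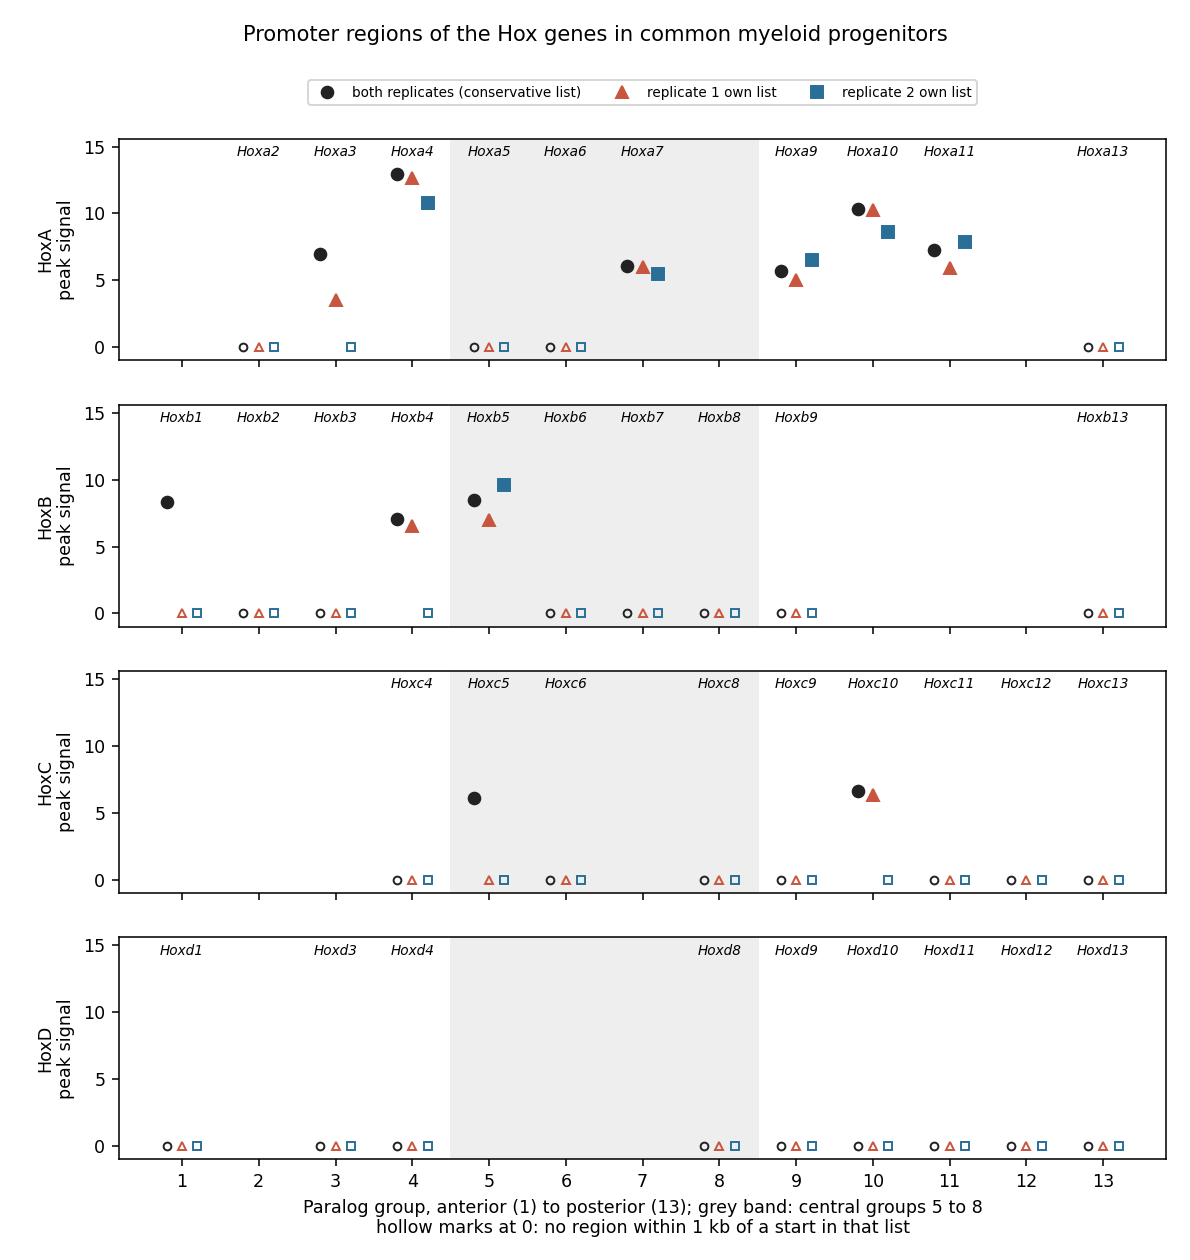
Peak signal of the strongest region within 1 kb of a start (vertical axis, authors' scale) for each Hox gene, by paralog group and cluster. Filled marks give the joint list, replicate 1 and replicate 2, and hollow marks at 0 stand for no region in that list. The HoxA row holds 6 open genes, and the HoxD row holds hollow marks only.

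Counts differed between the clusters. HoxA had 6 of 10 genes open, the share nearest to that of all genes, with 6 in replicate 1 and 5 in replicate 2. HoxB had 3 of 10, with 2 and 1 in the replicates. HoxC had 2 of 9, with 1 and 0. HoxD had 0 of 9 in all 3 lists by protein-coding starts. With the starts of all annotated transcripts it had 1 in the joint list, Hoxd11. The order from HoxA down to HoxD was the same in replicate 1, while in replicate 2 HoxC and HoxD were both at 0. By share, the order of HoxC and HoxB turned in some other lists. In the replicated peaks 6 of 9 HoxC genes and 4 of 10 HoxB genes were open, and in replicate 2's pseudoreplicated list 4 of 9 and 3 of 10. The authors' second IDR-thresholded list had 2 of 9 HoxC and 2 of 10 HoxB genes. Replicate 1's pseudoreplicated list kept the order, with 3 of 9 HoxC and 4 of 10 HoxB genes.

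Position along the axis separated the genes less than the cluster did. Anterior genes (paralog groups 1 to 4) were open in 4 of 11 cases, central genes (groups 5 to 8) in 3 of 11 and posterior genes (groups 9 to 13) in 4 of 16. In replicate 1 the counts were 3, 2 and 4, and in replicate 2 they were 1, 2 and 3. Within HoxA, 2 of 3 anterior, 1 of 3 central and 3 of 4 posterior genes were open. In HoxB the open genes were 2 of 4 anterior, 1 of 4 central and 0 of 2 posterior ones.

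Among HoxA genes, Hoxa4 had the strongest promoter region of all members, with a signal of 12.9 in the joint list, 12.7 in replicate 1 and 10.8 in replicate 2. This value lay at percentile 73.7 among the open genes. Its region spanned chr6:52191769-52192490 (mm10), inside an intron of long Hoxa3 transcripts. The 101 bases centred on its summit are shown because they carry the strongest HoxA signal and are dense in CpG (capitals). They are given on the plus strand at chr6:52191914-52192014, opposite to the Hox genes of this cluster.

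Hoxa4 summit: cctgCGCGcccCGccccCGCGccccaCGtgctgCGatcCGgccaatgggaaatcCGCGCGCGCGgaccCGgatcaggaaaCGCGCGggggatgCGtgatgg

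Of the 4 posterior HoxA genes Hoxa9, Hoxa10 and Hoxa11 were open, and Hoxa13 had no region in any list. Hoxa10, which acts in myeloid and lymphoid progenitors, had a signal of 10.3 in the joint list, 10.3 in replicate 1 and 8.63 in replicate 2. Hoxa11, best known from limb and uterus, had 7.25 in the joint list, 5.89 in replicate 1 and 7.90 in replicate 2. That region lies in an exon of the noncoding Hoxa11os and is also the one counted for Hoxa11os below. Hoxa9, a regulator of myeloid progenitors, was the weakest open member of the joint list, though not of either replicate's own, with 5.71 in the joint list, 5.01 in replicate 1 and 6.48 in replicate 2. That places Hoxa9 at percentile 6.49 among open genes, well under Hoxa10 at percentile 48.7. Hoxa7 had 6.04 in the joint list, 5.98 in replicate 1 and 5.48 in replicate 2. Hoxa3, an anterior gene of neck and pharynx, had 6.95 in the joint list. The same region had 7.16 in replicate 1's own list, where it ended more than 1 kb from the start, and another region of 3.54 came within reach. Replicate 2's own list had neither. Thus 5 of the 6 open HoxA genes were open in both replicates.

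In HoxB, Hoxb5 was the one member open in both replicates, with a signal of 8.47 in the joint list, 6.96 in replicate 1 and 9.57 in replicate 2. Hoxb5 marks long-term haematopoietic stem cells in mouse. Hoxb4, known for expanding haematopoietic stem cells when supplied in excess, had 7.08 in the joint list and 6.50 in replicate 1, and none in replicate 2's own list. Hoxb1, a hindbrain gene, had 8.30 in the joint list. It missed both own lists and was met only in the more permissive lists made from pseudoreplicates (random splits of a library's reads), with 6.20 in replicate 1 and 8.92 in replicate 2.

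HoxC had a pair of weak promoters. Hoxc10 had a signal of 6.66 in the joint list and 6.32 in replicate 1, with no region in replicate 2's own list. Hoxc5 had 6.11 in the joint list and was met only in the pseudoreplicated lists, with 4.98 in replicate 1 and 6.13 in replicate 2. Neither HoxC gene was open in both replicates.

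Open Hox promoters were weak and narrow beside those of other genes. Their median signal was 7.08, against 10.4 over all open protein-coding genes, and 10 of the 11 fell below that second value. The percentiles ran from 6.49 at Hoxa9 to 73.7 at Hoxa4. Their strongest regions had a median width of 424 bp (220 to 868 bp), against 850 bp over all open genes.

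The 27 members without a promoter region fell into a pair of classes. In the authors' ranked list, which also holds peaks under the threshold, 9 of them had a weak peak, namely Hoxa5, Hoxb9, Hoxc4, Hoxc9, Hoxc11, Hoxc13, Hoxd1, Hoxd3 and Hoxd9. Their signals ran from 3.23 at Hoxc9 to 5.01 at Hoxd1, and their scores in that list from 172 to 342, under the 540 at which the thresholded lists begin. That list opened 68.4% of all genes and 20 of the members. The other 18 had no peak within 1 kb of a protein-coding start in it. They were Hoxa2, Hoxa6 and Hoxa13, Hoxb2, Hoxb3, Hoxb6, Hoxb7, Hoxb8 and Hoxb13, Hoxc6, Hoxc8 and Hoxc12, and Hoxd4, Hoxd8, Hoxd10, Hoxd11, Hoxd12 and Hoxd13. Of these, Hoxc6 and Hoxd11 had a conservative region within 1 kb of a start of another annotated transcript, with signals of 6.22 and 5.24. Pseudoreplicated lists opened 14 members in replicate 1, against 66.0% of all genes, and 14 in replicate 2, against 63.9%. Beyond the open members they held a peak at Hoxa5, Hoxb9 and Hoxc9 in replicate 1 and at Hoxc11, Hoxc13 and Hoxd1 in replicate 2, so none of these 6 was met in both replicates.

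Most CpG-rich Hox starts were not open. Such starts were those whose 300 bases (250 before to 50 after the start) had a GC content of at least 50% and an observed to expected CpG ratio of at least 0.6. By this measure 25 of the 38 members had a CpG-rich start, and 6 of these 25 (24.0%) were open, against 88.0% of the 11256 protein-coding genes with such a start. In replicate 1 the 25 held 6 open genes, against 83.5% of CpG-rich genes, and in replicate 2 they held 4, against 78.1%. The share among CpG-rich members was also under the 32.0% of genes without a CpG-rich start. Of the members without a CpG-rich start, Hoxa9, Hoxb1, Hoxb4, Hoxb5 and Hoxc5 were open. Hoxa2, Hoxb2, Hoxb3, Hoxc4, Hoxc6, Hoxd4, Hoxd9 and Hoxd12 were not. The share open among members without a CpG-rich start was thus not below that 32.0%. The median CpG ratio was 0.801 over the members and 0.654 over all genes, and it was 0.797 in open members and 0.805 in the others.

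The promoters of Hoxa13 and Hoxd13, which shape limb ends and the urogenital tract, show this most plainly, so the 250 bases before their RefSeq starts (GRCm38.p6) are given 5′ to 3′ on the strand of the gene with CpG in capitals. Hoxa13 is on the minus strand at chr6:52260881-52261130 and Hoxd13 on the plus strand at chr2:74667975-74668224.

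Hoxa13: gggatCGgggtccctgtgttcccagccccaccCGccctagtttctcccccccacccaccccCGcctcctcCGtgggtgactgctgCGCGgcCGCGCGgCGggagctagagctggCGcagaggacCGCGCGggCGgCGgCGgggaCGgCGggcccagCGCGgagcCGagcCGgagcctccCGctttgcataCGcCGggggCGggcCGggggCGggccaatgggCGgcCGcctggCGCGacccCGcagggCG
Hoxd13: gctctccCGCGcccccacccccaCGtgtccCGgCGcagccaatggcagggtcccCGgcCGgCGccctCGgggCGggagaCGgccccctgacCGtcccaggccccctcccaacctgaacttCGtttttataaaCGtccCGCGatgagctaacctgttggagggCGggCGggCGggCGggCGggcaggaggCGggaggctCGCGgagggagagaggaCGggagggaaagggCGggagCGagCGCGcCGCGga

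The full 300-base windows hold 45 CpG at Hoxa13 and 37 at Hoxd13, against a median of 14.5 over the 24 windows of the 22 members in the RefSeq promoter table and 7 over all 32851 windows. Neither promoter had a peak in the conservative or the ranked list. Of the 24 windows, the one of Hoxb1 alone met a conservative region.

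**Figure D2:**
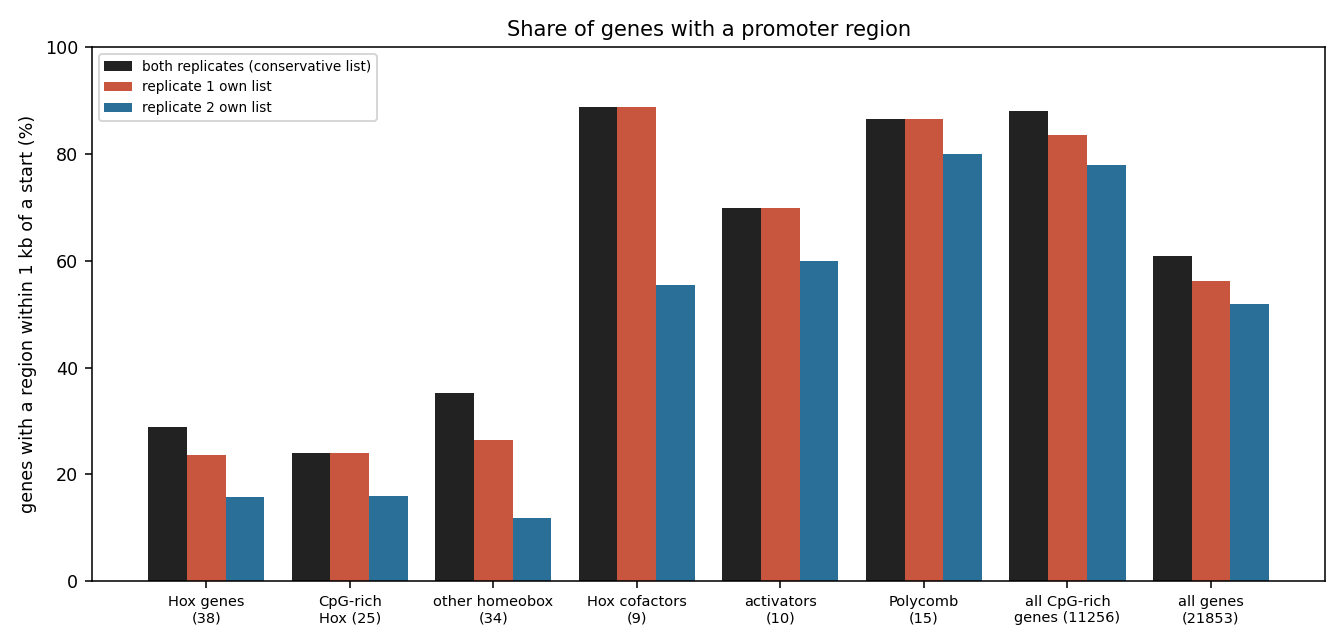
Percent of genes with a region within 1 kb of a start (vertical axis) for the Hox genes, gene lists around them, CpG-rich genes and all genes, in the joint list and in each replicate's own list. Hox genes stand at 28.9% and CpG-rich Hox genes at 24.0%, against 88.0% of all CpG-rich genes and 60.8% of all genes.

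Most accessible regions of Hox genes lay beside the protein-coding start rather than over it. Of the 11 open members 2, Hoxa7 and Hoxa9, had a region that covered such a start (18.2%), against 91.1% of open protein-coding genes. In replicate 1 a region covered a start in 2 of 9 open members, against 91.8% of open genes, and in replicate 2 in 2 of 6, against 90.9%. The median distance from the summit of the strongest region to the nearest start was 268 bp for the members and 74 bp for all open genes. It was 283 and 69 bp in replicate 1 and 237.5 and 71 bp in replicate 2.

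The gap between region and start was 9 bp at Hoxc5, 16 bp at Hoxa4, 39 bp at Hoxc10, 45 bp at Hoxb1 and 89 bp at Hoxa10. It was 113 bp at Hoxb5, 138 bp at Hoxa3, 211 bp at Hoxb4 and 560 bp at Hoxa11. So 5 of the 9 missed a start by less than 100 bases. The count depends on which starts are used. With the starts of all annotated transcripts, noncoding ones included, Hoxb1 and Hoxb5 were also covered, which gives 4 of 11 (36.4%), against 92.4% of open genes. At Hoxa3 the nearer of 2 regions was the weaker, and the summit of the stronger one lay 1351 bp from the start. The members were also set against genes of like strength, a comparison added after seeing the data. Among genes in the lower 30% of promoter signal, a region covered a start in 2 of 9 members (22.2%), against 82.5% of 3988 genes.

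**Figure D3:**
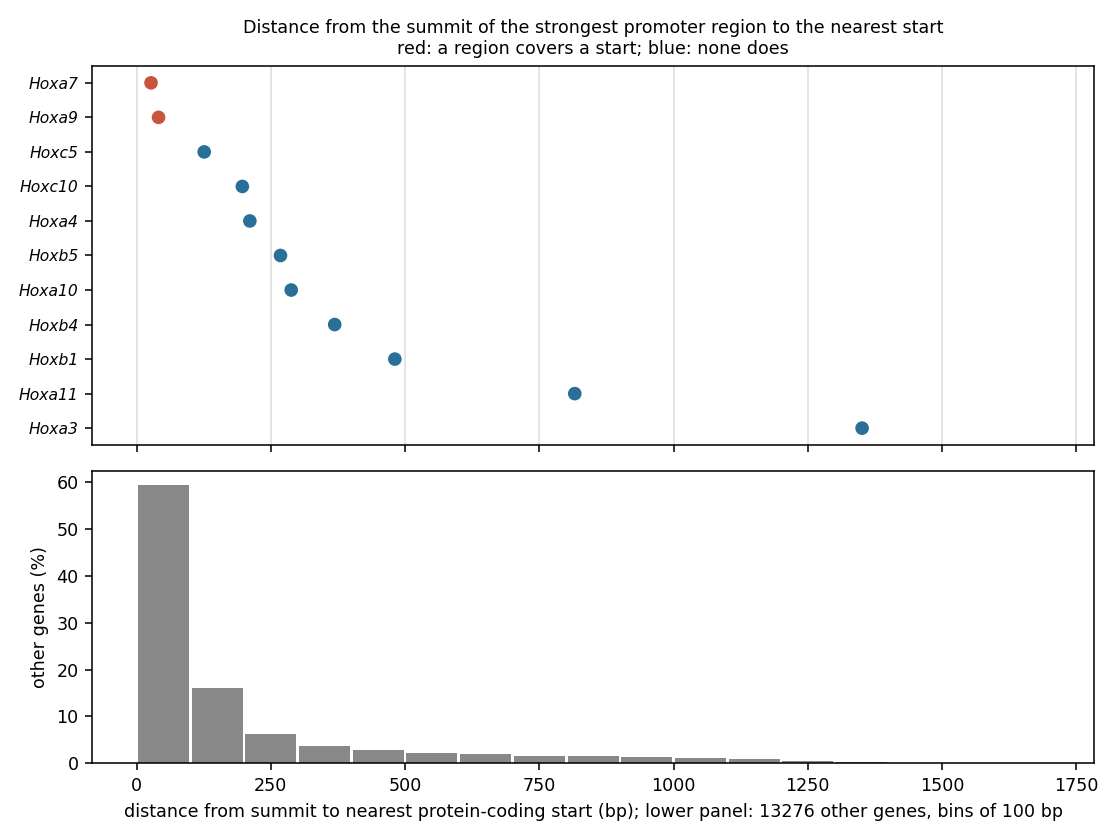
Distance in bp from the summit of the strongest promoter region to the nearest protein-coding start, for the 11 open Hox genes (upper panel, red where a region covers a start) and as percent of other open genes in bins of 100 bp (lower panel). Hoxa7 at 27 bp and Hoxa9 at 41 bp are the members in the first bin, where most other genes lie.

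All regions inside the clusters were then described, whether near a start or not. The span of the listed genes was chr6:52162417-52260880 for HoxA, chr11:96194316-96368256 for HoxB, chr15:102921103-103036852 for HoxC and chr2:74668310-74765142 for HoxD. Together these 484.988 kb held 27 regions, or 5.57 per 100 kb, against 1.89 per 100 kb in the 100 kb flanks and 2.47 over the genome. In replicate 1 the densities were 4.12 inside, 1.51 in the flanks and 1.74 over the genome. In replicate 2 they were 2.47 inside, 1.26 in the flanks and 1.38 over the genome. Density inside the pooled clusters thus exceeded both other values in each replicate. HoxD went the other way beside its posterior flank, which had 3 per 100 kb in replicate 1 and 4 in replicate 2, against 2.07 inside in both. In the joint list these were 5 and 5.16. The other clusters were denser than each of their own flanks in these lists.

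In the joint list and in both replicates' own HoxA was the densest, with 9 regions or 9.14 per 100 kb (9.14 in replicate 1, 5.08 in replicate 2), covering 4.57% of its length. HoxB had 9 regions or 5.17 per 100 kb (3.45 and 2.30), and HoxC had 4 or 3.46 (2.59 and 0.864). HoxD had 5 regions or 5.16 per 100 kb (2.07 and 2.07), although none of its genes was open. The rank of HoxA turned in other lists. In the stronger 50% of regions it had 2.03, under HoxB with 2.87 and HoxD with 2.07, and in the replicated peaks HoxD had 13.4 and HoxA 13.2. In the joint list and the replicates' own, each cluster was denser than the genome, except HoxC in replicate 2, where 0.864 lay under the genome's 1.38.

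**Figure D4:**
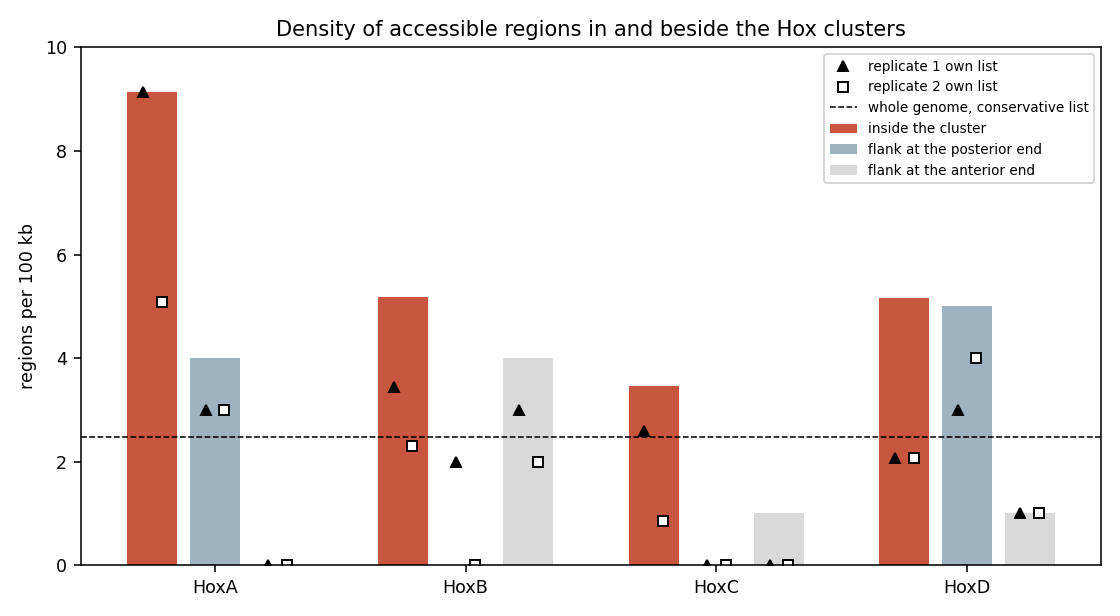
Accessible regions per 100 kb (vertical axis) inside each Hox cluster and in the 100 kb flank at either end. Bars give the joint list, marks give each replicate's own list, and the dashed line is the genome value of 2.47. HoxA stands highest at 9.14, and its posterior flank holds 4 while its anterior flank is at 0.

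In the joint list HoxA had 4 regions in its posterior flank and 0 in the anterior one, HoxB 0 and 4, HoxC 0 and 1, and HoxD 5 and 1. In replicate 1's own list the same counts were 3 and 0 for HoxA, 2 and 3 for HoxB, 0 and 0 for HoxC and 3 and 1 for HoxD. In replicate 2's they were 3 and 0, 0 and 2, 0 and 0, and 4 and 1. The uneven flanks of HoxA and HoxD were thus found in each of the 3 lists, while for HoxB the empty posterior flank was not found in replicate 1. The authors' second IDR-thresholded list also had 2 regions there, and 4 in the anterior flank. In the replicated peaks the counts were 5 and 4 for HoxA, 5 and 9 for HoxB, 1 and 5 for HoxC and 9 and 1 for HoxD. The HoxA flanks were thus nearly even in that more permissive list. The HoxD posterior flank held the strongest region of the whole set, at chr2:74605946-74606651, with a signal of 14.9. Of 7 protein-coding genes with a start in the flanks, 2 were open in the joint list, against 60.8% of all protein-coding genes. They were Lnpk with a signal of 12.7 and Mtx2 with 11.4, both beside HoxD. The homeobox genes Evx1 beside HoxA and Evx2 beside HoxD were not open, nor were Calcoco2, Ttll6 and Skap1 beside HoxB.

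In the joint list, regions inside the clusters had a median signal of 7.25, against 9.85 in the flanks and 8.35 over all regions. In replicate 1's own list the medians were 7.39 inside, 10.3 in the flanks and 8.71 over all regions. In that of replicate 2 they were 9.51, 9.50 and 9.66, so inside regions were not weaker than the flanks there. Of the 27, 17 fell below the median of all regions. Replicate 1's own list met 19 of them (70.4%), against 67.9% of all regions, and replicate 2's met 12 (44.4%), against 54.9%. All 12 of replicate 2 were among the 19, so both met 44.4%, against 50.6% of all regions, and 8 were met by neither own list. A single one, chr2:74686380-74686591 in an exon of Hoxd11 with a signal of 5.14, was met by neither pseudoreplicated list. The DNA at the summits was rich in CpG, with a median ratio of 0.704 inside the clusters, against 0.450 in the flanks and 0.276 over all regions.

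**Figure D5:**
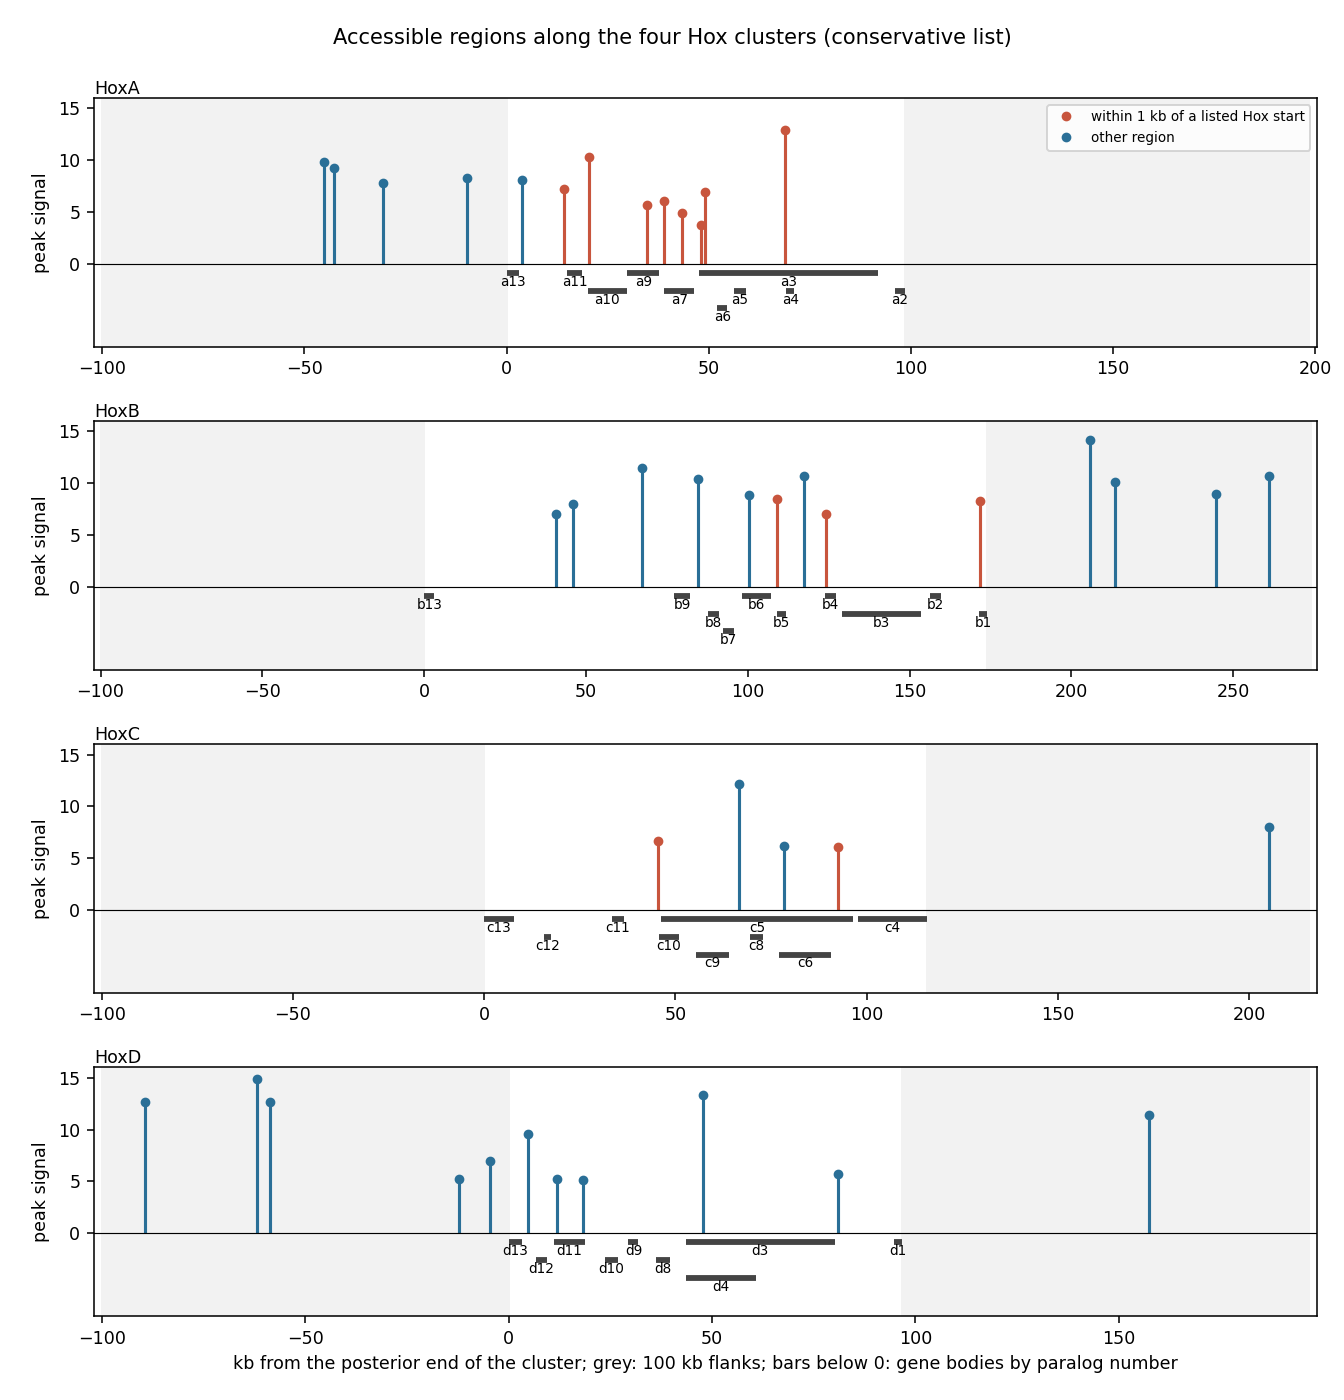
Peak signal of each conservative region (vertical axis, authors' scale) along the 4 clusters, in kb from the posterior end, with flanks in grey and gene bodies below 0 marked by their number. Red regions lie within 1 kb of a protein-coding start of a listed Hox gene, and blue ones do not. All HoxD regions are blue.

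In the joint list the strongest regions of 3 clusters were not at Hox promoters. Of the 27 regions 13 lay within 1 kb of a member's protein-coding start and had a median signal of 6.95 (3.73 to 12.9). The 14 that lay farther away had a median of 8.47 (5.14 to 13.3). In HoxA the strongest was the Hoxa4 region described above. In HoxB it was chr11:96261469-96261888, with 11.5 in the joint list, 9.73 in replicate 1 and 10.03 in replicate 2. It lies in an exon of the long intergenic RNA Gm53, between Hoxb13 and Hoxb9. In HoxC it was chr15:102987470-102987981, with 12.2 in the joint list, 10.7 in replicate 1 and 11.4 in replicate 2. That region lies between Hoxc9 and Hoxc8, inside an intron of a long Hoxc5 transcript. The 101 bases centred on both summits are shown, plus strand, with CpG in capitals, at chr11:96261689-96261789 and chr15:102987569-102987669.

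HoxB summit: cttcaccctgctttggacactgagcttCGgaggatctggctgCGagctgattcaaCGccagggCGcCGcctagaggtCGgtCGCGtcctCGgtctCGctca
HoxC summit: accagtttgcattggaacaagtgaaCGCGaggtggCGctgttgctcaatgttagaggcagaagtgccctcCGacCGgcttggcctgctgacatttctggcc

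In HoxD the strongest region was chr2:74715738-74716322, with 13.3 in the joint list, 12.2 in replicate 1 and 12.0 in replicate 2, the highest signal inside any cluster. It lies in an exon of the antisense RNA Hoxd3os1. A weaker one lay at chr2:74749275-74749739 in an exon of Haglr, a long noncoding RNA at the anterior end of HoxD, with 5.69 in the joint list and in neither own list. Between Hoxd13 and Hoxd12, chr2:74673002-74673297 had 9.55 in the joint list, 8.55 in replicate 1 and 8.41 in replicate 2. HoxB also held chr11:96311188-96312164 between Hoxb5 and Hoxb4, made of 4 merged peaks, with 10.7 in the joint list, 8.66 in replicate 1 and 11.3 in replicate 2, where it was the strongest of HoxB. Between Hoxb9 and Hoxb8, chr11:96278830-96279090 had 10.4 in the joint list, 8.48 in replicate 1 and 9.45 in replicate 2. These intergenic HoxB and HoxD regions were found in both replicates.

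In the joint list, long stretches held no region. The longest was 47.0 kb in HoxB and contained the whole of Hoxb2 and Hoxb3. HoxC had one of 45.4 kb with Hoxc11, Hoxc12 and Hoxc13. In HoxD a stretch of 33.0 kb lay between the Hoxd3os1 and Haglr regions, and one of 29.1 kb held Hoxd8, Hoxd9 and Hoxd10. The longest in HoxA was 29.4 kb, from Hoxa2 up to the Hoxa4 region. Not all of these stretches were empty in the more permissive replicated peaks. That list had weak peaks within 1 kb of Hoxc11 (signal 3.34) and of Hoxd9 (3.95).

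Binding words of a few factors were searched within 100 bp of each summit, on both strands, and a match describes letters, not a bound site. A core word of the CTCF motif was found at 4 of the 27 summits (14.8%), against 0 of 15 in the flanks and 11.6% of all regions. This count, too, lies near the genome share. In the replicated peaks 7.02% of summits inside the clusters held the word, with no share over all regions of that list beside it. CTCF is an insulator protein that divides Hox clusters into domains. Of the 4, 2 lay in HoxA, at the Hoxa7 and Hoxa10 regions, and 2 in HoxD, at the region between Hoxd13 and Hoxd12 and at the Hoxd3os1 region. The 30 bases around each are given on the strand of the match, with the matched letters in capitals. They lie at chr6:52221800-52221829 (minus), chr6:52240532-52240561 (minus), chr2:74673169-74673198 (minus) and chr2:74715912-74715941 (plus).

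Hoxa7 region: aagaaaattCCAGGAGATGGCagtgtggct
Hoxa10 region: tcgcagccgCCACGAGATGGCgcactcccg
Hoxd13 to Hoxd12: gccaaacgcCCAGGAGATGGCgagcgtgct
Hoxd3os1 region: gagctttgtCCAGGAGGAGGCgctgtagga

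The third of these runs against the strand of the Hox genes and the other 3 run along it. The distance from match to summit was 12 bp at the Hoxa7 region and 43 bp at the Hoxd3os1 region. Words of blood factors were searched in the same way. The GATA word AGATAAG was found at 1 of 27 summits (3.70%), against 0 of 15 in the flanks and 5.02% of all regions. The MEIS word TGACAG was found at 3 (11.1%), against 3 of 15 in the flanks and 16.7% of all regions. Both counts lie near the genome share. The RUNX word TGTGGTT, at 11.1% of all regions, the PU.1 word GAGGAAGT, at 8.27%, and the PBX-HOX word TGATTNAT, at 1.80%, were each found at 0 of 27. In the flanks RUNX had 1 of 15 and the other words 0. No test was run on these counts.

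Of 38 noncoding genes inside the clusters 9 (23.7%) had a region within 1 kb of a start, against 14.7% of noncoding genes of the genome. Leaving out entries of the type misc_RNA, it was 5 of 26 (19.2%), against 14.7% of the genome's. The 5 were Hoxa11os, 9530018H14Rik, Gm53, Hoxd3os1 and Haglr. Hotair, an RNA of the HoxC cluster, had none. The microRNAs of the clusters, which repress Hox transcripts among other targets, had none within 1 kb of their hairpins either. Mir10a lay 1.20 kb from the nearest region, Mir196a-1 3.28 kb, Mir196b 3.70 kb, Mir196a-2 6.59 kb and Mir10b 9.75 kb, and Mir615 lay 1.10 kb away. The RefSeq mature sequences (GRCm38.p6) of the miR-10 and miR-196 families are shown with the seed (bases 2 to 8) in capitals, because copies in different clusters share it.

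miR-10a-5p (HoxB): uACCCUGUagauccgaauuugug
miR-10b-5p (HoxD): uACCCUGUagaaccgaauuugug
miR-196a-5p (HoxB and HoxC): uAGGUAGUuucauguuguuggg
miR-196b-5p (HoxA): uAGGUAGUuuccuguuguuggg

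Genes that act with or on Hox genes were set beside them, against 60.8% of all genes in the joint list, 56.3% in replicate 1 and 52.0% in replicate 2. Of the 9 cofactors 8 were open, Meis1 with a signal of 8.06 and Pbx3 with 11.3 among them, and Pbx2 was not. In replicate 1's own list 8 were open, with Pbx2 and without Meis3, and in replicate 2's 5 of 9 were, near the share of all genes. Among activators 7 of 10 were open, in replicate 1 likewise 7 and in replicate 2 6, also near the share of all genes. Men1, a partner of Kmt2a, had 12.0 and Kmt2a itself 5.57, while Cdx1, Cdx2 and Cdx4, which drive Hox genes in the embryo, were not open. Polycomb subunits were open in 13 of 15 cases (13 and 12 in the replicates), with Ezh2 at 12.8 and Suz12 at 11.3, and Pcgf2 and Ring1 not open. Homeobox genes outside the clusters were nearer to the Hox genes, with 12 of 34 open (35.3%), 9 in replicate 1 and 4 in replicate 2. Hhex, which acts in blood progenitors, had 7.64, and Nkx6-1, a gene of pancreas and nervous system, had 11.6.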

How the data were processed

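Peak lists of 2 ATAC-seq libraries were used, on mm10 per the labels. The aligner, peak caller, filters and any read shift for the transposase, not given in the sources used here, could not be checked. Each deposited peak has a signal value of the authors, whose scale is not stated, and the score of the deposited ranked list shows which peaks passed the threshold of 540. Read counts are not in these lists. Depth is therefore unknown for both libraries, and no count test or counting interval was possible.

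Overlapping peaks on chromosomes 1 to 19, X and Y were merged, keeping the signal and summit of the strongest, in Python 3.11.15 with pandas 2.3.3, NumPy 2.4.6 and pysam 0.24.0. Starts came from GENCODE M21, and regions met by at least 1 bp. Of the 39 genes of the rule 1 is not analysed here, and its body with 1 kb on each side was left out of the flanks. Merging and the calling of genes with a region within 1 kb were tested on simulated data. The steps behind covered starts and summit distances were not tested that way. Alternatives were other lists, each replicate alone, windows of 500 and 2500 bp, principal or all transcript starts, flanks of 50 kb, summit-based counting and other motif windows. The members and lists were chosen with earlier results of these data known. Any member, any gene of the fixed lists, any protein-coding gene within 100 kb and any noncoding gene in a cluster with a region within 1 kb could be named. Hotair and the microRNAs, which have no region, were named after their values were seen.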

Additional observations from a re-analysis of the deposited data

How the results depend on the processing

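Of the alternative values of 16 results, 70 stayed within 1.5 times the count or the replicate spread and 47 moved. For HoxD density the replicate spread was 0, so any value other than the main one counted as moved. In the replicated peaks, which hold more and weaker peaks by construction, open members numbered 20 (HoxB 4, HoxC 6, HoxD 3, anterior 7, posterior 9), density was 13.2 in HoxA, 11.5 in HoxB, 9.50 in HoxC, 13.4 in HoxD and 4.90 in the flanks, and the median signal inside was 4.86. In the stronger 50% of regions, fewer by construction, 3 members were open (HoxA 2, HoxB 1, HoxC 0, anterior, central and posterior 1 each), density was 2.03 in HoxA, 2.87 in HoxB, 0.864 in HoxC, 2.07 in HoxD and 1.26 in the flanks, the median signal was 10.5, and 30% of summits held the CTCF word. The series list gave 4.02 in HoxB, 3.10 in HoxD and 2.14 in the flanks. HoxD had 2 open genes with a window of 2500 bp and 1 (Hoxd11) with the starts of all transcripts, an alternative chosen after seeing the data, which also opened Hoxc6 and gave 36.4% of open members a covered start, against 18.2%. Leaving out either replicate gave 6 to 9 open members, 1 to 2 in HoxB, 0 to 1 in HoxC and 1 to 3 anterior ones. Density then was 5.08 to 9.14 in HoxA, 2.30 to 3.45 in HoxB, 0.864 to 2.59 in HoxC, 2.07 in HoxD and 1.26 to 1.51 in the flanks. Median signal was 7.39 to 9.51, CTCF share 20 to 33.3% and covered starts 22.2 to 33.3%. The CTCF share was 7.02% in the replicated peaks. No share over all regions of the same list stands beside these alternative CTCF values, so they show no enrichment. The cause of the moves was not tested. No paired analysis was possible because the libraries form 1 group. Lists without counts leave weak regions at Hox genes undecided at this depth.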
